A study of Mus musculus with 12 samples.

Results

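Retinoic acid (RA) was given to wild-type (WT) mouse CD4 T cells, and the response was read from 4 RNA-seq libraries, 2 with 10 nM RA and 2 with 0 nM RA, of 12 in the series. The other 8 libraries carry the labels RARα KO and RARα TG, for which no allele or construct is named. Naive CD4 T cells, over 95% pure per the labels, came from mice of the inbred C57BL/6 strain. They were activated for 24 h through CD3 and CD28 in medium with charcoal-stripped serum, which holds little retinoid. Every culture, with RA or without, held 20 ng/mL of IL-6, 10 ng/mL of each of IL-1β, IL-23 and IL-21, and 5 ng/mL of each of TGF-β1 and TNFα. Neutralising antibodies against IL-4 and IFNγ were present at 10 µg/mL. This mixture favours Th17 cells, the helper cells that make interleukin-17, so RA was tested on top of that state. Genes were members if their FPKM, the authors' read number scaled to gene length and library size, was at least 1 in at least 2 of the 12 libraries. This held for 11922 of 52635 genes listed. Library depth, worked out from the FPKM that a single read adds, was 16969623 and 16289969 reads with 10 nM RA and 22567762 and 17713512 reads with 0 nM RA. Whether the 2 replicates of a dose are separate mice is not stated, and p-values therefore cover the spread between libraries, which may be technical.

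RA, made by cells from vitamin A, enters the nucleus and binds the receptors RARα, RARβ and RARγ, which pair with retinoid X receptors on DNA. Without ligand the pair holds corepressors, and ligand exchanges them for coactivators. In T cells RA is known for imprinting gut homing, for favouring Foxp3-positive regulatory T cells over Th17 cells in the presence of TGF-β, and for inducing genes of its own transport and breakdown.

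With 10 nM RA, 1209 of 11922 genes changed, which is 10.1% (limma on log2(FPKM + 1), adjusted p under 0.05, termed called). Of these, 795 rose (6.67%) and 414 fell (3.47%). Only 87 of the rises and 46 of the falls reached 2-fold on this scale, on which low genes appear to change less than they do, while 506 rises and 291 falls stayed under 1.5-fold. Both 10 nM libraries lay above or below both 0 nM libraries for 6411 genes, 53.8% of those tested, and for all 1209 called genes. Replicates correlated at 0.981 with 10 nM RA and 0.984 with 0 nM RA over genes, which are not independent replicates. The number of calls rested on single libraries. It was 477 without 10 nM replicate 1, 850 without 10 nM replicate 2, 554 without 0 nM replicate 1 and 342 without 0 nM replicate 2, and 287 genes were called in all 4 of these fits. A fit on the 4 WT libraries alone called 142 genes, and of 173 named genes that were called here it kept 52. Scaling to the upper quartile gave 667 rises and 554 falls, so that rises made up 54.6% of the calls, against 65.8% as deposited. Named genes said to have risen or fallen with no further remark were called in all 4 fits that left out a library, but not always in the fit on WT alone, which dropped Il17f, Vim, Irf8, Ccr9, Xcl1 and Dhrs3 among others. Counts of a list in the 4 fits are given in the order 10 nM replicate 1 left out, 10 nM replicate 2, 0 nM replicate 1 and 0 nM replicate 2. Fold changes are log2 ± SE.

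**Figure D1:**
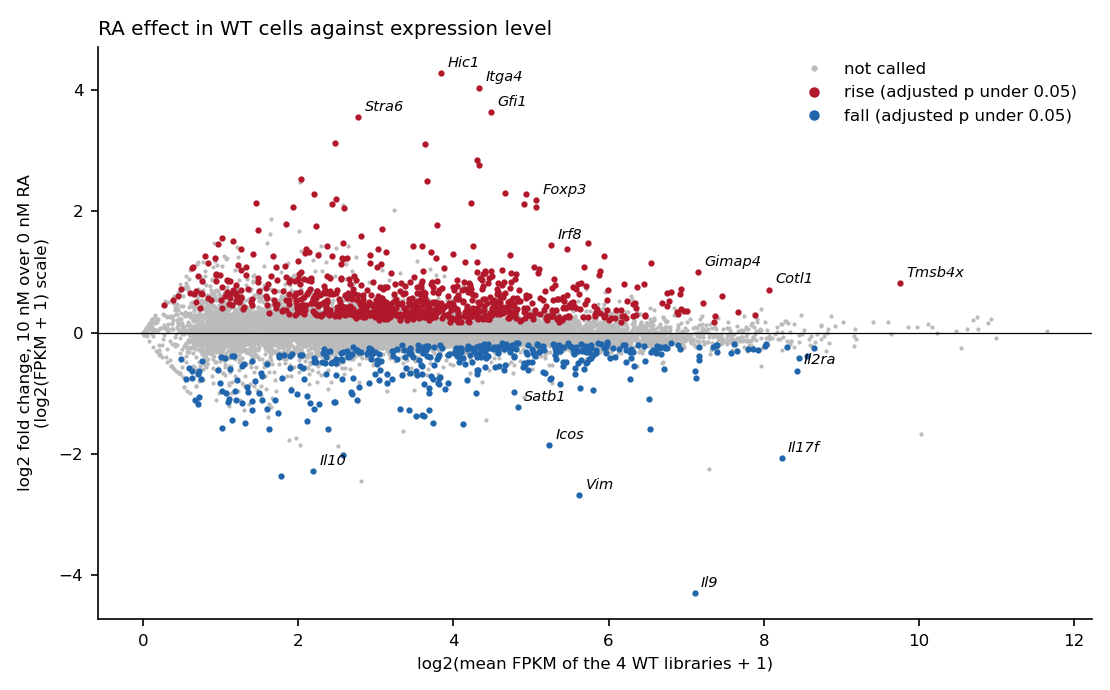
The log2 fold change of 10 nM over 0 nM RA (vertical axis) is plotted for each of 11922 tested genes against the log2 of its mean FPKM over the 4 WT libraries plus 1 (horizontal axis). The 795 called rises and 414 called falls are coloured, and Hic1 at 4.28 and Il9 at -4.29 lie farthest from 0.

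The largest rises were in genes of transcriptional repression, adhesion and RA transport. Hic1, a zinc-finger repressor, stood at 28.2 and 24.5 FPKM with 10 nM RA, against 0.319 and 0.497 FPKM with 0 nM (4.28 ± 0.25, limma adjusted p = 0.00016). Itga4, the α4 integrin subunit, stood at 41.3 and 32.6 FPKM with 10 nM RA and 1.38 and 1.22 FPKM with 0 nM (4.04 ± 0.15, adjusted p = 1.5e-05). Gfi1, another zinc-finger repressor, had 40.6 FPKM in each 10 nM library and 2.84 and 1.93 FPKM in the 0 nM libraries (3.63 ± 0.19). Stra6, the membrane receptor that takes up retinol from its carrier protein, had 8.50 and 14.8 FPKM with 10 nM RA, against 0.0380 and 0.0581 FPKM with 0 nM (3.55 ± 0.35). The doses did not overlap for any of the 4 genes, as their choice required, and Stra6 passed the filter on low values through libraries with RA. Below them came Plac8, a small cysteine-rich protein, with 23.1 and 17.8 FPKM against 2.09 and 3.55 FPKM with 0 nM (2.51 ± 0.24). Tgm2, a protein-crosslinking transglutaminase, had 43.2 and 56.1 FPKM with 10 nM RA and 8.75 and 10.0 FPKM with 0 nM (2.28 ± 0.15). Timd2, a TIM-family receptor that shares sequence with its relatives and may share reads with them, had 5.28 and 8.08 FPKM with 10 nM RA and 0.421 and 0.699 FPKM with 0 nM (2.28 ± 0.30). Fbxo2, a ubiquitin ligase subunit that binds glycoproteins, had 35.7 and 23.5 FPKM with 10 nM RA, against 6.74 and 5.04 FPKM with 0 nM (2.13 ± 0.27). The mitochondrial transfer RNA gene mt-Tm had 2.56 and 4.45 FPKM with 10 nM RA and was listed at 0 in both 0 nM libraries. Its call ended without 10 nM replicate 2 (adjusted p = 0.069), 0 nM replicate 1 (0.068) or 0 nM replicate 2 (0.088), and other mitochondrial genes are listed at 0 in every library, so its 0 is not read as absence.

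**Figure D2:**
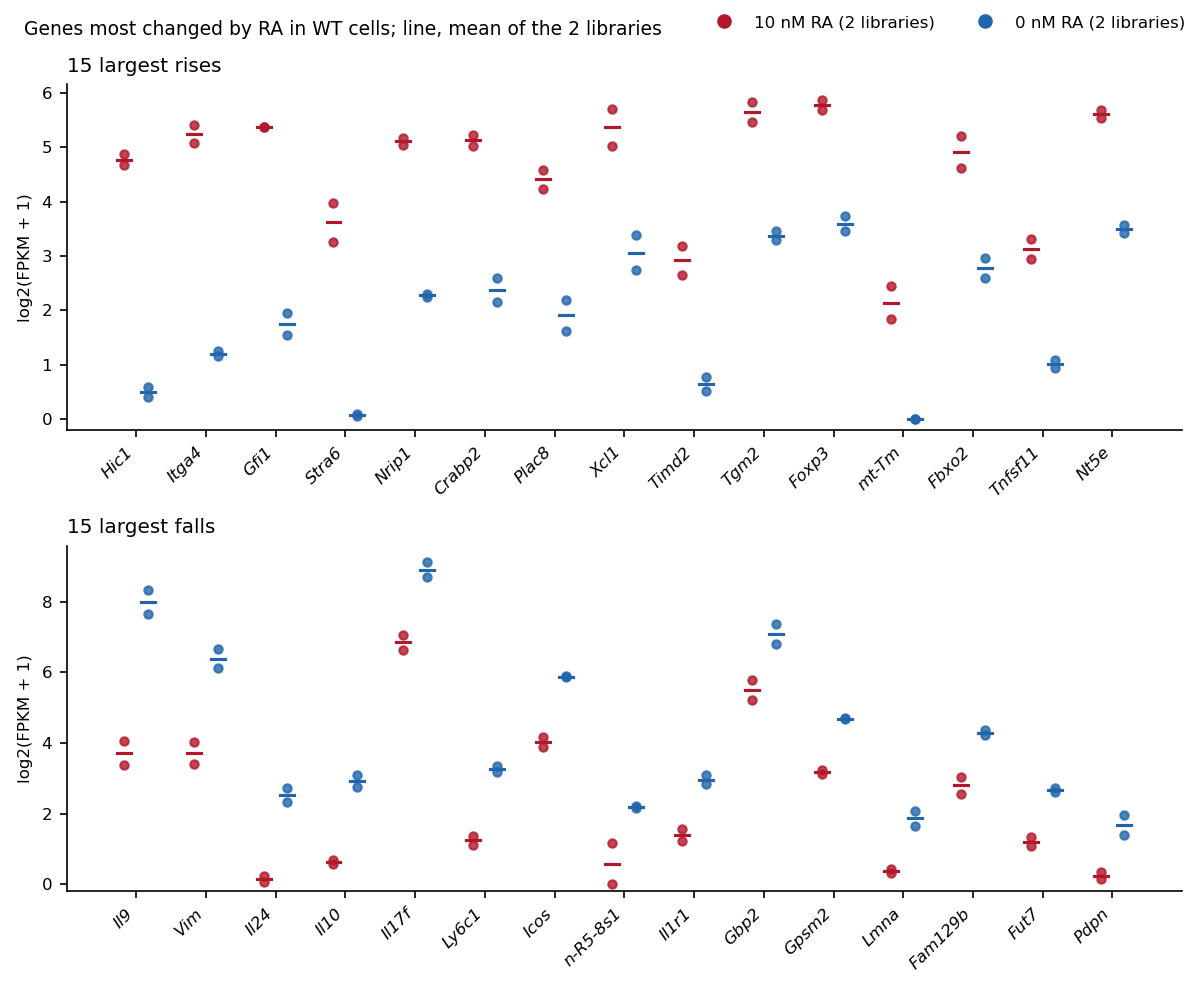
Each point is 1 WT library, 10 nM RA on the left of each pair and 0 nM RA on the right, on the scale log2(FPKM + 1), for the 15 largest called rises (top) and 15 largest called falls (bottom), predicted genes left out. Short lines are means of 2 libraries. In every pair both libraries of one dose lie above both of the other, as the choice of genes required.

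The promoters of the 4 largest rises are shown because RA receptors bind pairs of a 6-base half-site, so such pairs were searched near the starts of the genes that rose most. Sequences are from RefSeq on GRCm38.p6, 250 bases before to 50 after the gene's start, and run 5′ to 3′ on the gene's strand. Where a gene has more than 1 listed start, the most upstream is shown. Capitals mark single half-sites, found on either strand. The half-sites searched were AGGTCA and its variant GGGTCA. Also searched were AGTTCA and its variant GGTTCA.
Hic1, chr11:75170206-75170505, minus strand: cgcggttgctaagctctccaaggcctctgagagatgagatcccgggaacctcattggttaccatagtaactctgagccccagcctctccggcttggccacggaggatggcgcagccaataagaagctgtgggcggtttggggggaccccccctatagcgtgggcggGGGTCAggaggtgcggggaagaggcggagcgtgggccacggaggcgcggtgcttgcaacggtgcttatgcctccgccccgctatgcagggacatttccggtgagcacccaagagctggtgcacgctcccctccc
Itga4, chr2:79255176-79255475, plus strand: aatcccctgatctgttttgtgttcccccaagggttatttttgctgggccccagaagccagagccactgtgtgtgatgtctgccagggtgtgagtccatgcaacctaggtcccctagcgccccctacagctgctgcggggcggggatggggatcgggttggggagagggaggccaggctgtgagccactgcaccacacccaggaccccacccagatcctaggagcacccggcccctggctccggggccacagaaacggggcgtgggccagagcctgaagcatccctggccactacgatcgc
Gfi1, chr5:107725756-107726055, minus strand: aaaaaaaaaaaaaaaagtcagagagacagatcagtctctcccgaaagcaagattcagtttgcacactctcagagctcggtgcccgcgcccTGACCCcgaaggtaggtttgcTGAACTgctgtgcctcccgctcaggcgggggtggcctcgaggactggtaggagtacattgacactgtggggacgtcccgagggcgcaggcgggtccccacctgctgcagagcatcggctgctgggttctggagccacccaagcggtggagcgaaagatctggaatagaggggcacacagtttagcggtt
Stra6, chr9:58128838-58129137, plus strand: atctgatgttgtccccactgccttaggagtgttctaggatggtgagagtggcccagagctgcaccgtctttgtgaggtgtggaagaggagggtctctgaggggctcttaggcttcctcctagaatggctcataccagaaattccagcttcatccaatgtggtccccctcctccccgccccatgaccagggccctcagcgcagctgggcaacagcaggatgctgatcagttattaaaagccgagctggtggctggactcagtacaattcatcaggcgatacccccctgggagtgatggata
The Hic1 window held 1 half-site, the Gfi1 window 2, and those of Itga4 and Stra6 held 0. A direct repeat of these half-sites with a spacer of 1, 2 or 5 bases was searched at every listed start. It was found in 0 of the 12 genes with a promoter sequence among the 15 largest rises. Shares below count genes, each with a site at any of its listed starts. The repeat was present in 0.688% of 27025 mouse genes with a promoter sequence and in 0.373% of 8311 tested genes with one. Among rises it was present in 0.164% of 608 genes and among falls in 0.633% of 316. A half-site was present in 43.3% of these rises and 38.3% of these falls, against 41.6% of tested genes and 46.9% of all genes with a promoter sequence. Among changes of 2-fold or more a half-site was present in 49.2% of 63 rises and 64.5% of 31 falls with a promoter sequence. These letters describe the windows alone and say nothing of sites elsewhere.

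The 15 largest falls included 4 cytokine genes, Il9, Il24, Il10 and Il17f, and genes of several other functions. Il9, a cytokine of mast-cell and Th9 responses, stood at 9.35 and 15.5 FPKM with 10 nM RA, against 201 and 322 FPKM with 0 nM (-4.29 ± 0.44, limma adjusted p = 0.0011). Vim, which encodes the intermediate filament vimentin, stood at 9.50 and 15.3 FPKM with 10 nM RA and 68.9 and 99.0 FPKM with 0 nM (-2.68 ± 0.31). Il24, an IL-10 family cytokine, had 0.0425 and 0.177 FPKM with 10 nM RA and 3.996 and 5.54 FPKM with 0 nM (-2.37 ± 0.32), and passed the filter through libraries without RA. Lmna, which encodes lamins A and C of the nuclear envelope, had 0.242 and 0.347 FPKM with 10 nM RA, against 2.14 and 3.24 FPKM with 0 nM (-1.50 ± 0.22). For these genes the 2 replicates of a dose lay close together beside the gap between doses. Gpsm2, which orients the mitotic spindle, had 7.69 and 8.48 FPKM with 10 nM RA and 24.3 and 25.3 FPKM with 0 nM (-1.51 ± 0.12). Fam129b had 4.91 and 7.23 FPKM with 10 nM RA and 17.7 and 19.4 FPKM with 0 nM (-1.49 ± 0.15). Ly6c1, a surface antigen of memory-type T cells whose reads may be divided among near-identical Ly6 genes, had 1.58 and 1.17 FPKM with 10 nM RA and 9.22 and 7.98 FPKM with 0 nM (-2.02 ± 0.23). Pdpn, which encodes the surface glycoprotein podoplanin, had 0.0973 and 0.270 FPKM with 10 nM RA, against 1.63 and 2.86 FPKM with 0 nM (-1.43 ± 0.33), a call lost without any 1 of the WT libraries (-1.33, -1.54, -1.71 and -1.16, in the order given). The ribosomal RNA gene n-R5-8s1 was listed at 0 and 1.24 FPKM with 10 nM RA and stood at 3.59 and 3.43 FPKM with 0 nM. Its call ended without 10 nM replicate 1 (-1.01), 0 nM replicate 1 (-1.57) or 0 nM replicate 2 (-1.62).

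Genes that sense and carry RA moved in both directions. Of 4 tested RA and retinoid X receptor genes, Rxrb rose and Rara, Rarg and Rxra fell, and none of these calls held in every fit. Rxra had 3.52 and 4.20 FPKM with 10 nM RA, against 6.84 and 7.48 FPKM with 0 nM (-0.75 ± 0.13, limma adjusted p = 0.0096), and its call ended without 10 nM replicate 1 (-0.65) or 0 nM replicate 2 (-0.69). Rara, whose product is the receptor named in the series' labels, had 12.3 and 14.2 FPKM with 10 nM RA and 16.5 and 18.9 FPKM with 0 nM (-0.39 ± 0.09), with the call lost in the same 2 fits (-0.29 and -0.30). Rarg had 2.32 and 2.36 FPKM with 10 nM RA and 4.09 and 3.96 FPKM with 0 nM (-0.59 ± 0.15), and Rxrb had 32.0 and 31.7 FPKM and 27.3 and 26.5 FPKM (0.24 ± 0.06). The calls of Rarg (-0.58, -0.60, -0.57 and -0.61) and Rxrb (0.23, 0.24, 0.26 and 0.21) ended in each of the 4 fits. Of 11 tested genes of retinoid uptake, binding and metabolism, 3 rose and 0 fell in limma, with 1 lower at an unadjusted p under 0.05 and 0 falls in voom, and the 3 rises stood in all 4 fits. Beside Stra6 they were Crabp2, which carries RA to its nuclear receptors, at 36.5 and 31.7 FPKM with 10 nM RA and 5.03 and 3.46 FPKM with 0 nM (2.76 ± 0.24), and Dhrs3, a retinaldehyde reductase that lowers RA formation. Dhrs3 stood at 0.946 and 1.32 FPKM with 10 nM RA, against 0 and 0.251 FPKM with 0 nM (0.93 ± 0.15). Fabp5, a fatty-acid carrier that can also bind RA, had 13.5 and 16.3 FPKM with 10 nM RA and 21.3 and 19.4 FPKM with 0 nM (-0.43 ± 0.15, adjusted p = 0.11). Among 20 nuclear receptor coregulators 1 passed, Nrip1, a corepressor of liganded receptors, with 35.0 and 32.1 FPKM with 10 nM RA and 3.90 and 3.76 FPKM with 0 nM (2.84 ± 0.12). The share of coregulators called, 5%, was below the 10.1% of all genes. The coactivator gene Ncoa3 stood at 40.1 and 35.7 FPKM with 10 nM RA and 35.0 and 31.4 FPKM with 0 nM, not past the threshold.

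Of 32 transcriptional repressor genes tested, 7 rose and 3 fell, and in the 4 fits 4, 4, 2 and 3 rose and 2, 1, 1 and 1 fell. Hic1 and Gfi1 were far above the rest. Bcl6, the repressor that directs follicular helper T cells, had 4.56 and 4.67 FPKM with 10 nM RA, against 2.59 and 2.94 FPKM with 0 nM (0.58 ± 0.10), a call lost without 0 nM replicate 1 (0.51). Nfil3, a basic leucine zipper repressor, had 7.30 and 8.21 FPKM with 10 nM RA and 14.8 FPKM in each 0 nM library (-0.85 ± 0.10). Satb1, a chromatin organiser of naive T cells, also fell, to 17.9 and 14.2 FPKM with 10 nM RA, against 40.0 and 37.6 FPKM with 0 nM (-1.23 ± 0.11, limma adjusted p = 0.00072). Zfp219, a zinc-finger transcription factor, rose to 16.4 and 16.9 FPKM with 10 nM RA, against 6.03 and 5.14 FPKM with 0 nM (1.42 ± 0.11). Among 283 tested genes with Zfp symbols, 4 rose and 2 fell, a smaller share than that of all genes, with 1, 4, 1 and 1 rises and 1, 0, 2 and 0 falls in the 4 fits. Runx1, a transcription factor of T-cell development, had 19.6 and 18.1 FPKM with 10 nM RA and 8.48 and 8.49 FPKM with 0 nM (1.06 ± 0.10). Ikzf1, which encodes Ikaros, stood at 89.6 and 80.4 FPKM with 10 nM RA and 101.3 and 97.8 FPKM with 0 nM (-0.23 ± 0.06, adjusted p = 0.055).

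Adhesion and homing genes did not move as a block. Of 12 integrin genes tested 3 rose and 1 fell, with 1, 5, 2 and 1 rises in the 4 fits and 1 fall in each. Itgb2, the β2 chain of LFA-1, had 229 and 196 FPKM with 10 nM RA, against 147 and 130 FPKM with 0 nM (0.61 ± 0.12), a call lost without 10 nM replicate 1 (0.50) or 0 nM replicate 2 (0.53). Its partner Itgal stood at 82.8 and 88.8 FPKM with 10 nM RA and 119 and 122 FPKM with 0 nM (-0.49 ± 0.16, limma adjusted p = 0.10). Itgae, the αE chain of intraepithelial T cells, had 2.89 and 1.72 FPKM with 10 nM RA and 0.580 and 0.801 FPKM with 0 nM (0.95 ± 0.22), with the call lost without 10 nM replicate 1 (0.69), 0 nM replicate 1 (0.85) or 0 nM replicate 2 (1.04). Itga3, a laminin-binding α chain, fell to 2.12 and 2.81 FPKM with 10 nM RA, against 6.44 and 6.802 FPKM with 0 nM (-1.15 ± 0.11). Itgb7, the chain that pairs with α4 in gut-homing cells, stood at 49.3 and 36.4 FPKM with 10 nM RA and 54.3 and 46.9 FPKM with 0 nM (-0.25 ± 0.16, adjusted p = 0.38). Of 23 tested homing receptors 3 rose and 4 fell, with 3 rises in each of the 4 fits and 2, 4, 3 and 2 falls. The rises were the small-intestine homing receptor gene Ccr9 (2.70 and 1.41 FPKM with 10 nM RA, 0.00432 and 0.0110 FPKM with 0 nM, 1.57 ± 0.17), the skin-homing receptor gene Ccr8 (108 and 114 FPKM, 61.1 and 65.1 FPKM, 0.81 ± 0.10) and the follicle-homing receptor gene Cxcr5 (30.1 and 33.8 FPKM, 14.003 and 16.4 FPKM, 1.03 ± 0.15). Ccr9 thus showed a large relative change at a low level, and Ccr8 a smaller one at a high level. The filter on low values was passed by Ccr9 only through libraries with RA. Ptger4, a prostaglandin E2 receptor, fell to 6.27 and 5.38 FPKM with 10 nM RA, against 10.4 and 9.43 FPKM with 0 nM (-0.68 ± 0.09). Gpr15, the colon-homing receptor, stood at 0.3198 and 0.238 FPKM with 10 nM RA and 0.721 and 0.613 FPKM with 0 nM (adjusted p = 0.21), and the lymph-node homing gene Ccr7 (adjusted p = 0.64) did not pass. Selectin ligands are built by glycosyltransferases, and 2 that act on them fell. Fut7 had 1.13 and 1.51 FPKM with 10 nM RA and 5.64 and 5.06 FPKM with 0 nM (-1.46 ± 0.15), and Gcnt1 had 0.423 and 0.529 FPKM and 1.74 and 2.96 FPKM (-1.16 ± 0.18). Of 18 genes of that list 4 rose and 3 fell, with 1, 3, 3 and 1 rises and 2, 3, 2 and 2 falls in the 4 fits. Among the rises was the chondroitin sulfotransferase gene Chst11, with 4.07 and 4.29 FPKM with 10 nM RA and 1.88 and 1.76 FPKM with 0 nM (0.88 ± 0.07).

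Summed over 46 listed cytokine genes, FPKM was 955 and 1196 with 10 nM RA, against 1511 and 1980 with 0 nM. The genes tested were 30 of the 46. Of these genes 4 rose and 6 fell, with 3, 3, 3 and 2 rises and 5, 6, 7 and 4 falls in the 4 fits. The fall in the sum lay mainly in Il9 and in Il17f, a Th17 cytokine at 98.6 and 131 FPKM with 10 nM RA and 412 and 554 FPKM with 0 nM (-2.06 ± 0.22, limma adjusted p = 0.0012). Il17a, its neighbour and partner, stood at 7.35 and 10.6 FPKM with 10 nM RA and 7.98 and 10.0 FPKM with 0 nM (adjusted p = 0.98), so the doses overlapped. Il22 had 0.531 and 0.664 FPKM with 10 nM RA and 2.44 and 8.60 FPKM with 0 nM (-1.85 ± 0.50, adjusted p = 0.054). Il10, the anti-inflammatory cytokine, fell to 0.495 and 0.609 FPKM with 10 nM RA, against 5.75 and 7.46 FPKM with 0 nM (-2.28 ± 0.24). Tnfsf11, which encodes the cytokine RANKL, rose to 6.69 and 8.87 FPKM with 10 nM RA, against 0.912 and 1.11 FPKM with 0 nM (2.12 ± 0.16). Mdk, the growth factor midkine, rose to 4.72 and 5.42 FPKM with 10 nM RA, against 1.41 and 1.49 FPKM with 0 nM (1.31 ± 0.12). Cd40lg, the helper signal to B cells, had 17.1 and 17.4 FPKM with 10 nM RA and 30.5 and 40.5 FPKM with 0 nM (-0.98 ± 0.18), with the call lost without 10 nM replicate 1 (-0.97) or 0 nM replicate 2 (-0.79). Of 12 chemokine genes 1 passed, with 3, 1, 1 and 1 rises in the 4 fits and a median log2 fold change of 0.55, -0.31, -0.19 and 0.38 in them. It was Xcl1, the ligand that draws cross-presenting dendritic cells, at 31.4 and 51.4 FPKM with 10 nM RA and 5.68 and 9.39 FPKM with 0 nM (2.31 ± 0.33). The share of chemokine genes called, 8.33%, was near the 10.1% of all genes. Both Xcl1 and Ccl3 (8.62 and 22.04 FPKM with 10 nM RA, 3.93 and 7.66 FPKM with 0 nM, adjusted p = 0.097) were higher in replicate 2 at both doses. Among 28 cytokine receptor genes 6 rose and 5 fell, with 5, 7, 5 and 4 rises and 2, 5, 4 and 2 falls in the 4 fits. Ifngr1, a chain of the interferon-γ receptor, rose to 36.3 and 36.9 FPKM with 10 nM RA, against 15.02 and 14.2 FPKM with 0 nM (1.27 ± 0.10). Il10rb, a chain shared by receptors of the IL-10 family, rose to 11.2 and 11.3 FPKM with 10 nM RA, against 6.53 and 6.78 FPKM with 0 nM (0.68 ± 0.08). Il1r1, the IL-1 receptor, fell to 1.32 and 1.93 FPKM with 10 nM RA, against 6.11 and 7.56 FPKM with 0 nM (-1.58 ± 0.15). Il2ra, the high-affinity IL-2 receptor chain, fell to 258 and 283 FPKM with 10 nM RA, against 405 and 431 FPKM with 0 nM (-0.63 ± 0.07).

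The helper-cell programmes split by gene. Of 26 Th17 genes tested 4 rose and 5 fell, with 3, 2, 2 and 2 rises and 5, 5, 6 and 4 falls in the 4 fits. Beside Il17f and Il1r1 the falls included Nfkbiz, a nuclear IκB protein that acts on Th17 genes, at 8.91 and 9.004 FPKM with 10 nM RA and 14.3 and 16.3 FPKM with 0 nM (-0.71 ± 0.08), and Irf4, an activation-induced factor, at 325 and 328 FPKM with 10 nM RA and 423 and 425 FPKM with 0 nM (-0.38 ± 0.05). Batf, a factor of early Th17 differentiation, stood at 109 and 125 FPKM with 10 nM RA and 123 FPKM in each 0 nM library, and Hif1a, the hypoxia-response factor, at 197 and 177 FPKM with 10 nM RA and 207 and 194 FPKM with 0 nM, neither past the threshold. Of 21 regulatory T-cell genes 7 rose and 3 fell, with 4, 5, 4 and 4 rises and 3 falls in each of the 4 fits. Foxp3, their lineage factor, rose to 50.4 and 57.1 FPKM with 10 nM RA, against 9.95 and 12.3 FPKM with 0 nM (2.18 ± 0.25). Nt5e and Entpd1 encode CD73 and CD39, which act in sequence to turn extracellular ATP into adenosine, and they moved in opposite directions. Nt5e rose to 50.4 and 45.7 FPKM with 10 nM RA, against 10.9 and 9.73 FPKM with 0 nM (2.12 ± 0.18), while Entpd1 fell to 1.62 and 2.31 FPKM with 10 nM RA, against 5.65 and 5.67 FPKM with 0 nM (-1.18 ± 0.11). Ctla4 stood at 299.7 and 328 FPKM with 10 nM RA and 298 and 269 FPKM with 0 nM, not past the threshold. Of 22 regulators of Th1, Th2 and follicular helper cells 6 rose and 5 fell, with 4, 4, 2 and 3 rises and 4, 4, 4 and 3 falls in the 4 fits. Tox, a nuclear factor of T-cell differentiation, rose to 5.06 and 3.90 FPKM with 10 nM RA, against 1.86 and 1.59 FPKM with 0 nM (1.00 ± 0.14). Crem, a cyclic-AMP-responsive factor, fell to 4.35 and 4.52 FPKM with 10 nM RA, against 8.998 and 8.23 FPKM with 0 nM (-0.82 ± 0.10). Tbx21, the Th1 factor, stood at 5.33 and 8.69 FPKM with 10 nM RA and 2.67 and 3.90 FPKM with 0 nM (0.88 ± 0.29, adjusted p = 0.093), and Gata3, the Th2 factor, at 1.04 and 0.849 FPKM and 0.602 and 0.539 FPKM (adjusted p = 0.18). Irf8, an interferon regulatory factor also active in T cells, rose to 47.3 and 62.8 FPKM with 10 nM RA, against 17.6 and 21.4 FPKM with 0 nM (1.45 ± 0.19).

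Receptors that give a second signal to T cells moved both ways. Of 13 coinhibitory receptors and ligands 4 rose and 0 fell in limma, with 2 lower at an unadjusted p under 0.05 and 5 rises and 0 falls in voom, and in the 4 fits 1, 3, 2 and 2 rose. Cd96, an inhibitory receptor of T and NK cells, rose to 25.7 and 21.5 FPKM with 10 nM RA, against 10.0 and 9.82 FPKM with 0 nM (1.16 ± 0.11). Lag3, which binds class II molecules, had 25.7 and 25.4 FPKM with 10 nM RA and 15.6 and 11.8 FPKM with 0 nM (0.86 ± 0.15), with the call lost without 10 nM replicate 1 (0.85) or 0 nM replicate 2 (0.68). Pdcd1, which encodes PD-1, stood at 90.4 and 96.6 FPKM with 10 nM RA and 58.6 and 64.1 FPKM with 0 nM (0.60 ± 0.16, limma adjusted p = 0.052). Of 21 costimulatory receptors 2 rose and 4 fell, with 0, 1, 0 and 0 rises and 2, 3, 3 and 2 falls in the 4 fits. Icos, which sustains follicular helper and effector cells, fell to 17.0 and 13.8 FPKM with 10 nM RA, against 57.9 and 57.5 FPKM with 0 nM (-1.85 ± 0.14). Cd2, an adhesion and costimulatory molecule, fell to 109 and 105 FPKM with 10 nM RA, against 173 and 161 FPKM with 0 nM (-0.64 ± 0.07). Cd69, an early activation marker, had 22.6 and 22.2 FPKM with 10 nM RA and 15.2 and 15.7 FPKM with 0 nM (0.51 ± 0.09), a call lost without 10 nM replicate 1 (0.50), 0 nM replicate 1 (0.48) or 0 nM replicate 2 (0.53). Cd38, a gene often used to mark RA exposure, stood at 3.33 and 7.26 FPKM with 10 nM RA and 1.34 and 2.73 FPKM with 0 nM (1.02 ± 0.34, adjusted p = 0.097), with replicate 2 the higher at both doses.

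Some genes of the proximal T-cell receptor pathway rose by small amounts, and most did not pass the test. Of 44 tested, 12 rose and 0 fell in limma, with 1 lower at an unadjusted p under 0.05 and 11 rises and 0 falls in voom, and in the 4 fits 4, 8, 6 and 2 rose. The median of the 44 log2 fold change was 0.20, against 0.02 over all genes tested. Themis, a thymocyte signalling adaptor, rose to 7.62 and 6.67 FPKM with 10 nM RA, against 3.38 and 3.48 FPKM with 0 nM (0.88 ± 0.08, limma adjusted p = 0.00066). Ubash3b, a phosphatase that dampens receptor signalling, rose to 30.8 and 28.4 FPKM with 10 nM RA, against 16.4 and 16.1 FPKM with 0 nM (0.82 ± 0.10). Cd3e, a chain of the receptor complex, had 48.1 and 46.9 FPKM with 10 nM RA and 36.1 and 34.8 FPKM with 0 nM (0.41 ± 0.07), with the call lost without 10 nM replicate 1 (0.40) or 0 nM replicate 2 (0.39). The adaptor gene Lat stood at 262 and 244 FPKM with 10 nM RA and 261 and 224 FPKM with 0 nM, not past the threshold. Of 27 genes of phosphatases and feedback regulators 5 rose and 0 fell in limma, with 1 lower at an unadjusted p under 0.05 and 5 rises and 0 falls in voom, and in the 4 fits 4, 3, 3 and 2 rose and 0, 1, 0 and 0 fell. The share of these 27 called was 18.5%, against 10.1% of all genes. Dusp14, a phosphatase of mitogen-activated kinases, rose to 10.4 and 13.4 FPKM with 10 nM RA, against 2.92 and 2.99 FPKM with 0 nM (1.70 ± 0.17). Spred2, an inhibitor of Ras signalling, rose to 9.08 and 8.98 FPKM, against 6.01 and 6.18 FPKM with 0 nM (0.50 ± 0.06). In the TGF-β pathway 8 of 26 genes rose and 1 fell, with 2, 4, 3 and 1 rises and 0, 1, 1 and 0 falls in the 4 fits. Pmepa1, a feedback inhibitor of that pathway, rose to 61.5 and 67.3 FPKM with 10 nM RA, against 49.1 and 48.1 FPKM with 0 nM (0.40 ± 0.05). Tgfbr2, the ligand-binding receptor, had 35.3 and 28.8 FPKM with 10 nM RA and 20.2 and 17.5 FPKM with 0 nM (0.73 ± 0.13), a call lost without 10 nM replicate 1 (0.59) or 0 nM replicate 2 (0.63).

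All 8 tested genes of the Gimap family, GTPases that maintain lymphocyte survival and lie side by side in the genome, rose with RA, and their summed FPKM was 596 and 518 with 10 nM RA, against 303 and 284 with 0 nM. Their median log2 fold change was 0.90, with a lowest of 0.36 and a highest of 1.18. Gimap5 rose to 10.95 and 11.4 FPKM with 10 nM RA, against 5.11 and 5.24 FPKM with 0 nM (0.98 ± 0.06, limma adjusted p = 0.00019). The most abundant members were Gimap4, at 203 and 175 FPKM with 10 nM RA and 95.1 and 93.2 FPKM with 0 nM (0.99 ± 0.26), and Gimap3, at 137 and 118 FPKM with 10 nM RA and 61.2 and 53.3 FPKM with 0 nM (1.14 ± 0.18). The direction was shared by all 8 genes, but the calls were not firm: in the 4 fits 2, 6, 4 and 1 rose. Gimap3 lost its call without 10 nM replicate 1 (1.03) or 0 nM replicate 2 (1.05), Gimap4 in each of the 4 fits (0.89, 1.10, 1.01 and 0.98), and Gimap5 in none. The genes are similar in sequence, and reads may be divided among them.

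Antigen presentation by MHC class I, the display of cytosolic peptides to CD8 T cells, rose in its peptide-handling steps. Of 22 tested genes 10 rose and 0 fell in limma, with 1 lower at an unadjusted p under 0.05 and 10 rises and 0 falls in voom, and in the 4 fits 6, 10, 8 and 6 rose. The median log2 fold change of the 22 was 0.37. Psmb10, Psmb8 and Psmb9 encode the catalytic subunits of the immunoproteasome. Psmb10 rose to 22.2 and 20.9 FPKM with 10 nM RA, against 12.3 and 11.1 FPKM with 0 nM (0.83 ± 0.10, limma adjusted p = 0.0020). Psmb8 rose to 40.7 and 40.1 FPKM with 10 nM RA, against 26.2 and 27.4 FPKM with 0 nM (0.57 ± 0.09), and Psmb9 to 15.7 and 15.8 FPKM, against 11.02 and 10.8 FPKM with 0 nM (0.49 ± 0.08). Tap1 and Tap2 form the peptide transporter, and Tapbpl edits the peptides loaded. Tap1 rose to 36.7 and 36.4 FPKM with 10 nM RA, against 28.0 FPKM in each 0 nM library (0.37 ± 0.05). Tap2 rose to 34.4 and 37.9 FPKM with 10 nM RA, against 23.4 and 23.1 FPKM with 0 nM (0.61 ± 0.08), and Tapbpl to 21.2 and 24.0 FPKM, against 13.8 and 14.8 FPKM with 0 nM (0.62 ± 0.08). The class I heavy chain gene H2-K1 stood at 413 and 370 FPKM with 10 nM RA and 335 and 307 FPKM with 0 nM (0.28 ± 0.09, adjusted p = 0.075), and the light chain gene B2m at 1255 and 1121 FPKM and 1127 and 1096 FPKM (adjusted p = 0.63), neither past the threshold. Of the 41 genes of the proteasome list, which holds the immunoproteasome genes too, 4 rose and 2 fell, with 3, 4, 5 and 3 rises and 0, 1, 0 and 0 falls in the 4 fits. The share of the proteasome list called was 14.6%, against 10.1% of all genes. The core subunit genes Psmb1 (193 and 184 FPKM, 199 and 173 FPKM) and Psma6 (188 and 195 FPKM, 210 and 211 FPKM) did not pass.

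Interferon-stimulated genes moved both ways. Of 29 tested, 7 rose and 3 fell, with 2, 5, 4 and 2 rises and 2, 2, 1 and 1 falls in the 4 fits. Of all 29, 20 were higher and 9 lower, with a median log2 fold change of 0.27. The summed FPKM of all 46 listed genes, tested or not, ran the other way. It was 533 and 504 with 10 nM RA, against 671 and 608 with 0 nM, with Gbp2 the largest contributor to the difference. Irgm1, an immunity-related GTPase, rose to 7.95 and 8.26 FPKM with 10 nM RA, against 4.24 and 5.02 FPKM with 0 nM (0.70 ± 0.09, limma adjusted p = 0.0026). Gbp5, a guanylate-binding protein, fell to 7.22 and 5.90 FPKM with 10 nM RA, against 18.7 and 15.7 FPKM with 0 nM (-1.27 ± 0.16). Its relative Gbp2, with which it may share reads, had 54.4 and 36.5 FPKM with 10 nM RA and 165 and 111 FPKM with 0 nM (-1.58 ± 0.33), and replicate 1 was the higher at both doses. The Gbp2 call ended without 10 nM replicate 2 (-1.30), 0 nM replicate 1 (-1.29) or 0 nM replicate 2 (-1.87). Bst2, the viral tether tetherin, stood at 64.3 and 87.0 FPKM with 10 nM RA and 91.1 and 91.8 FPKM with 0 nM (adjusted p = 0.21).

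Genes of the cytoskeleton and of chemokine receptor signalling moved both ways. Some abundant genes that act on actin rose, while the intermediate filament genes Vim and Lmna fell. Rgs16, which shortens chemokine receptor signals, rose to 61.6 and 68.4 FPKM with 10 nM RA, against 37.5 and 37.9 FPKM with 0 nM (0.77 ± 0.11). Rgs1, a relative with the same kind of activity, fell to 33.1 and 33.5 FPKM with 10 nM RA, against 59.4 and 67.6 FPKM with 0 nM (-0.91 ± 0.11, limma adjusted p = 0.0020). Rac2, a GTPase of blood cells that acts on actin, rose to 135 and 144 FPKM with 10 nM RA, against 106 and 113 FPKM with 0 nM (0.35 ± 0.06). The largest rise in mean FPKM of any called gene was that of Tmsb4x, the actin-monomer binder thymosin β4, which stood at 1049 and 1160 FPKM with 10 nM RA, against 629 and 625 FPKM with 0 nM (0.81 ± 0.09). Near-identical copies of Tmsb4x elsewhere in the genome may take part of its reads. Cotl1, an actin-filament binder, rose to 345 and 319 FPKM with 10 nM RA, against 212 and 194 FPKM with 0 nM (0.71 ± 0.10). Spn, the sialomucin CD43, rose to 147 and 146 FPKM with 10 nM RA, against 96.1 and 91.8 FPKM with 0 nM (0.63 ± 0.08). Actb, which encodes β-actin, stood at 1099 and 1299 FPKM with 10 nM RA and 1120 and 1293 FPKM with 0 nM (-0.01 ± 0.10), so the doses overlapped. Of 31 cytoskeletal, S100 and annexin genes 4 rose and 7 fell, with 3, 3, 2 and 3 rises and 4, 9, 6 and 3 falls in the 4 fits. Ezr, the membrane-actin linker ezrin, rose to 95.1 and 98.5 FPKM with 10 nM RA, against 79.6 and 78.7 FPKM with 0 nM (0.29 ± 0.04), and Anxa6, a calcium-dependent membrane binder, fell to 26.5 and 26.9 FPKM, against 41.8 and 42.8 FPKM with 0 nM (-0.64 ± 0.07). Lgals1, the glycan-binding galectin-1, had 87.1 and 119 FPKM with 10 nM RA and 153 and 194 FPKM with 0 nM (-0.75 ± 0.16), a call lost without 10 nM replicate 1 (-0.53) or 0 nM replicate 2 (-0.58).

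Lists of amino-acid metabolism, transfer RNA charging, ribosome assembly and protein folding had falls and no rises, with most members not called. Of 33 genes of one-carbon metabolism and of amino-acid synthesis and uptake 10 fell and 0 rose in limma, with 0 higher at an unadjusted p under 0.05 and 10 falls and 0 rises in voom, and in the 4 fits 2, 8, 2 and 2 fell. Of all 33, 29 were lower, and the median log2 fold change was -0.24. Mthfd1l, a mitochondrial formate-producing enzyme, fell to 41.1 and 41.8 FPKM with 10 nM RA, against 50.6 and 49.5 FPKM with 0 nM (-0.27 ± 0.04, limma adjusted p = 0.0049). Psat1, of serine synthesis, had 58.7 and 64.1 FPKM with 10 nM RA and 83.9 and 88.1 FPKM with 0 nM (-0.48 ± 0.09), a call lost without 10 nM replicate 1 (-0.42), 0 nM replicate 1 (-0.52) or 0 nM replicate 2 (-0.44). Of 20 transfer RNA synthetase genes, which charge transfer RNAs with amino acids, 5 fell and 0 rose in limma, with 1 higher at an unadjusted p under 0.05 and 5 falls and 0 rises in voom, and in the 4 fits 0, 3, 1 and 0 fell. Iars, the isoleucine enzyme, had 58.7 and 61.1 FPKM with 10 nM RA and 70.4 and 73.0 FPKM with 0 nM (-0.25 ± 0.05), with the call lost without 10 nM replicate 1 (-0.23) or 0 nM replicate 2 (-0.23). Of 44 ribosome biogenesis genes 8 fell and 0 rose in limma, with 0 higher at an unadjusted p under 0.05 and 7 falls and 0 rises in voom, and 43 of the 44 were lower. In the 4 fits 0, 4, 1 and 0 fell, so that none of its calls stood in every fit. Utp4, of the small-subunit processome, had 52.5 and 56.7 FPKM with 10 nM RA and 65.6 and 71.9 FPKM with 0 nM (-0.33 ± 0.06), with the call lost without 10 nM replicate 1 (-0.27) or 0 nM replicate 2 (-0.26). Of 44 chaperone and unfolded protein response genes 10 fell and 0 rose in limma, with 0 higher at an unadjusted p under 0.05 and 9 falls and 0 rises in voom, and in the 4 fits 2, 3, 3 and 2 fell. Sdf2l1, a chaperone subunit of the endoplasmic reticulum, fell to 34.9 and 36.3 FPKM with 10 nM RA, against 51.5 and 48.9 FPKM with 0 nM (-0.48 ± 0.05), and Edem1, which sends misfolded glycoproteins to degradation, to 22.5 and 25.2 FPKM, against 32.6 and 35.8 FPKM with 0 nM (-0.50 ± 0.07). In bulk RNA a lower share of a transcript in each cell and fewer cells that hold it cannot be told apart.

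**Figure D3:**
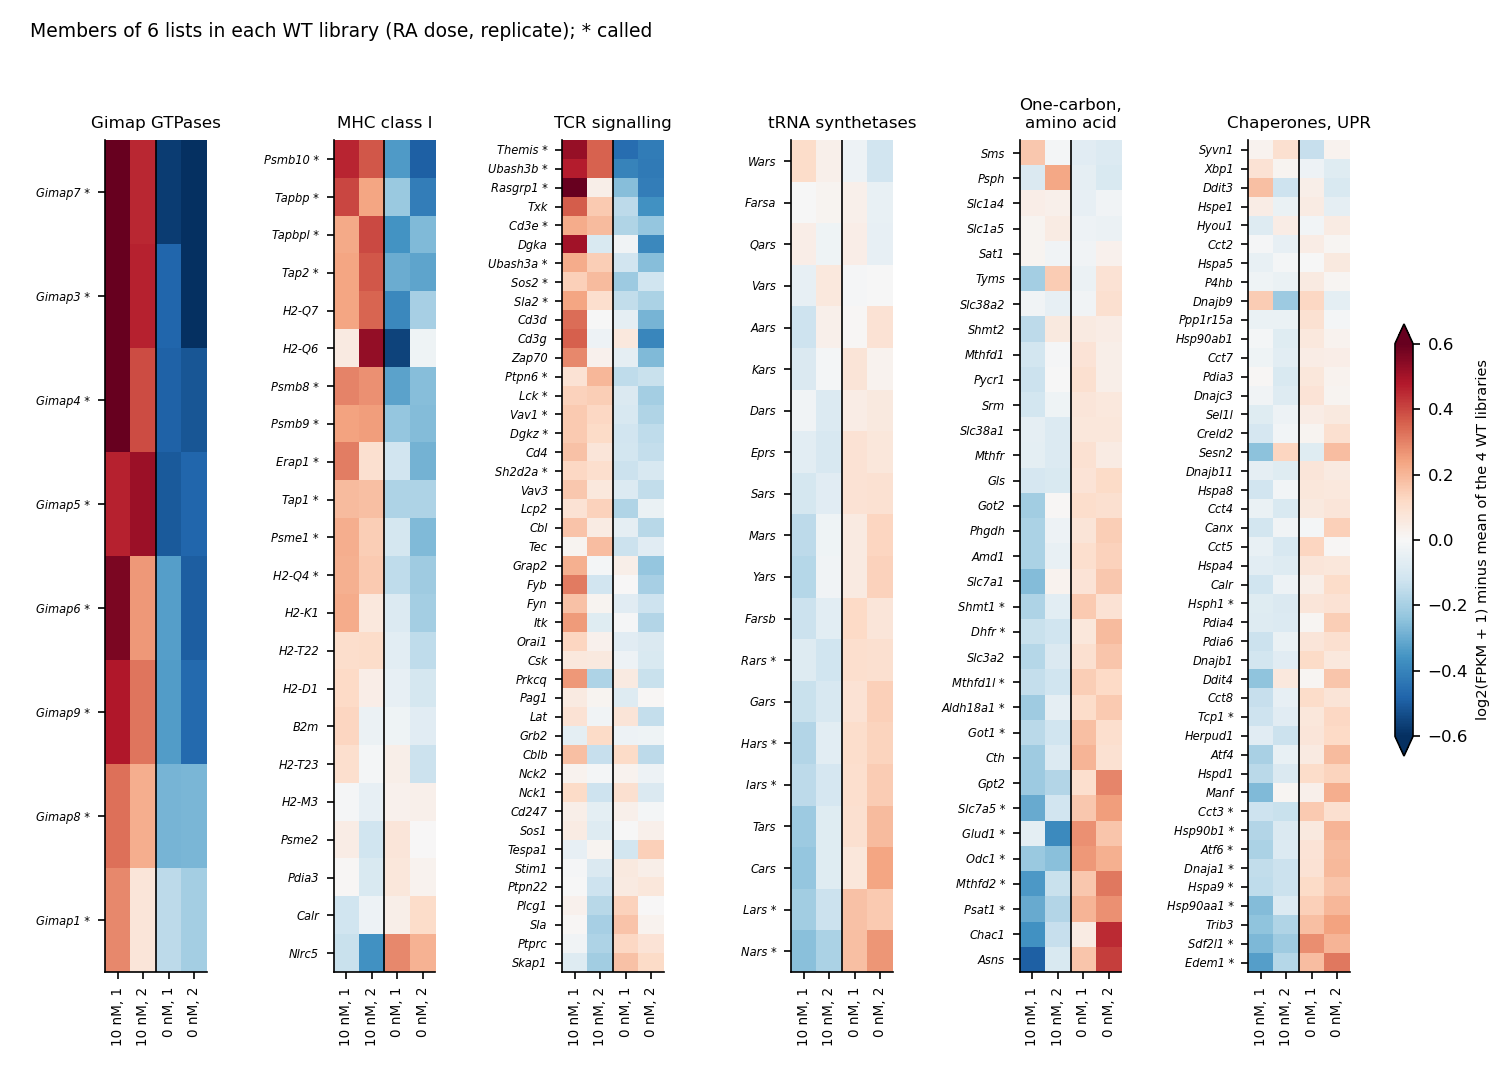
Rows are the tested members of 6 lists, ordered by fold change, and columns the 4 WT libraries, with 10 nM RA left of 0 nM RA. Colour is log2(FPKM + 1) minus the gene's mean over the 4 libraries, and asterisks mark calls, of which there were 8 of 8 in the Gimap list, 10 of 22 in MHC class I, 12 of 44 in T-cell receptor signalling, 5 of 20 in transfer RNA synthetases, 10 of 33 in one-carbon and amino-acid genes and 10 of 44 in chaperones.

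Genes of mitosis, DNA replication, oxidative phosphorylation and ribosomal proteins were called less often than all genes (10.1%). The 36 mitosis genes had a median SE of 0.26, against 0.08 for protein-coding genes, so the same change was less often detectable in them. Of these 36, 0 were called in limma, 0 had an unadjusted p under 0.05 and 0 were called in voom. Even so, all 36 were lower with 10 nM RA, with a median log2 fold change of -0.20. That median depended on single libraries, from -0.47 to 0.02 over the 4 fits, and Top2a, a topoisomerase of dividing cells, stood at 108 and 149 FPKM with 10 nM RA and 134 and 167 FPKM with 0 nM, so the doses overlapped. DNA replication had 1 rise and 1 fall among 45 genes, nuclear genes of oxidative phosphorylation 1 rise among 40, and ribosomal protein genes 2 rises among 74, of which 50 were higher. Sterol and fatty-acid synthesis had 3 rises and 1 fall among 36, with 23 higher and 13 lower, and 2, 0, 0 and 0 rises and 0 falls in the 4 fits. Myc, a driver of growth, stood at 174 and 160 FPKM with 10 nM RA and 182 and 179 FPKM with 0 nM (-0.11 ± 0.07, limma adjusted p = 0.40). Cdkn2d, an inhibitor of cyclin D kinases, rose to 51.6 and 55.8 FPKM with 10 nM RA, against 36.7 and 37.8 FPKM with 0 nM (0.51 ± 0.05). Glycolysis and hypoxia genes had 1 rise and 2 falls among 32. The share called there (9.38%) and in sterol and fatty-acid synthesis (11.1%) was near the 10.1% of all genes. Ldha stood at 529 and 591 FPKM with 10 nM RA and 611 and 596 FPKM with 0 nM, not past the threshold. Among 167 solute carrier genes 14 rose and 4 fell, close to the shares of all genes, with 5, 13, 7 and 3 rises and 0, 2, 1 and 0 falls in the 4 fits. Slc25a51, the mitochondrial NAD carrier, rose to 20.54 and 20.3 FPKM with 10 nM RA, against 10.96 and 10.47 FPKM with 0 nM (0.87 ± 0.05, adjusted p = 0.00017), and Slc12a4, a potassium-chloride cotransporter, to 26.4 and 26.9 FPKM, against 14.5 and 14.96 FPKM with 0 nM (0.81 ± 0.07).

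**Figure D4:**
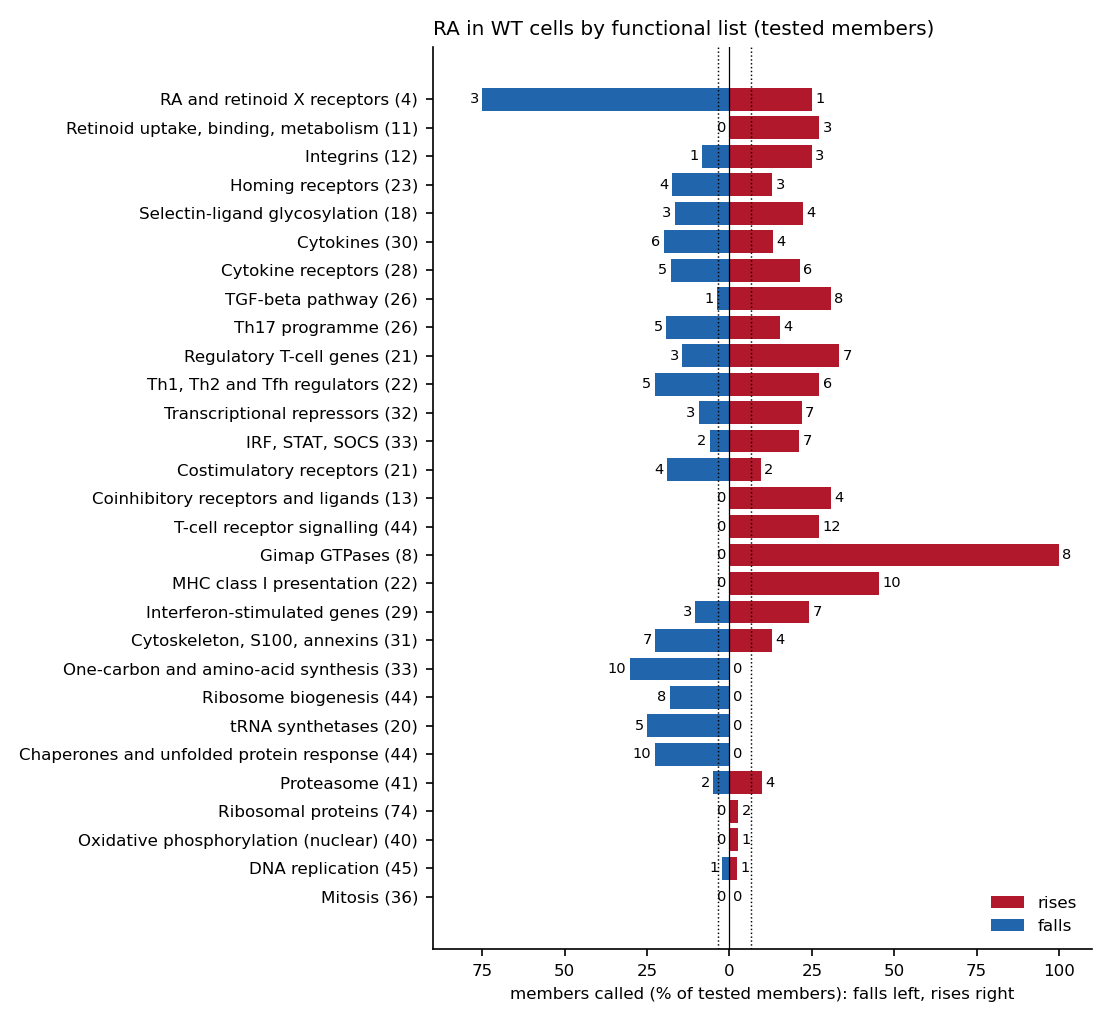
Bars give the share of tested members called as rises (right) and falls (left) in 29 functional lists, with the counts printed at the bar ends and the number tested in brackets. Dotted lines mark the shares over all genes, 6.67% for rises and 3.47% for falls, and the Gimap and MHC class I lists reach farthest to the right.

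The balance of rises and falls shifted with expression level, taken as the mean FPKM over all 12 libraries. Under 3 FPKM 98 of 2889 genes rose (3.39%) and 52 fell (1.80%). From 3 to 10 FPKM 267 of 3457 rose (7.72%) and 89 fell (2.57%), and from 10 to 30 FPKM 293 of 3429 rose (8.54%) and 132 fell (3.85%). From 30 to 100 FPKM the shares were near each other, with 116 rises among 1766 genes (6.57%) and 106 falls (6.00%). At 100 FPKM and over 21 of 381 rose (5.51%) and 35 fell (9.19%), so there falls were the more frequent. The median log2 fold change of a bin moved with it, at 0.06, 0.05, 0.01, -0.03 and -0.06 from the lowest bin to the highest, while the median SE fell to 0.07 in the highest bin, against 0.15 in the lowest. The split at 100 FPKM and over did not stand in every fit: rises and falls numbered 10 and 11 without 10 nM replicate 1, 20 and 17 without 10 nM replicate 2, 15 and 11 without 0 nM replicate 1 and 9 and 7 without 0 nM replicate 2. Upper-quartile scaling gave 16 rises and 53 falls in that bin and 100 rises and 160 falls from 30 to 100 FPKM. Changes of 2-fold or more numbered 21 rises and 17 falls among the 2889 genes under 3 FPKM, 26 and 15 among 3457 from 3 to 10 FPKM, and 26 and 8 among 3429 from 10 to 30 FPKM. There were 13 and 3 among 1766 from 30 to 100 FPKM, and 1 and 3 among the 381 at 100 FPKM and over. The 3 falls in the highest range were Il9, Il17f and Ly6a, a surface antigen at 55.5 and 59.7 FPKM with 10 nM RA and 118 and 129 FPKM with 0 nM (-1.09 ± 0.23), named after its values were seen. Its call ended in each of the 4 fits (-1.04, -1.14, -1.15 and -1.03).

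**Figure D5:**
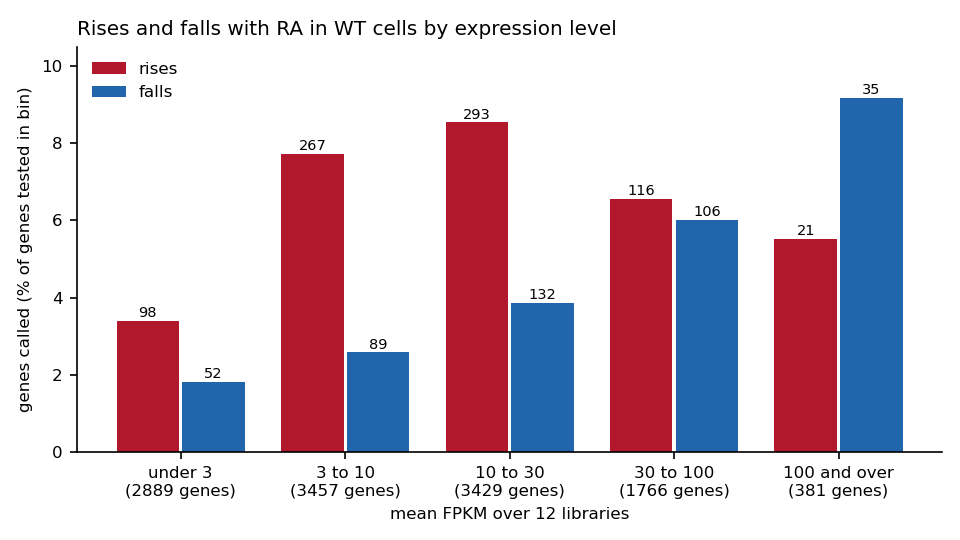
For 5 ranges of mean FPKM over the 12 libraries (horizontal axis, number of tested genes in brackets), bars give the percentage of genes called as rises and falls with RA, with counts above. Rises exceed falls up to 100 FPKM, and falls exceed rises at 100 FPKM and over.

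By gene class, calls lay almost wholly in protein-coding genes. Of 10165 protein-coding genes 753 rose (7.41%) and 388 fell (3.82%). Of 466 long non-coding genes and transcripts of unproven status 22 rose (4.72%) and 11 fell (2.36%), and of 822 pseudogenes, whose reads may belong to their parent genes, 15 rose (1.82%) and 8 fell (0.973%). Of 177 antigen receptor segments, which differ with the T-cell clones present, 1 rose. Their median SE was 0.33, against 0.08 for protein-coding genes, so that the same change was less often detectable there. Among 261 small and other RNA genes 3 rose and 6 fell, with a median SE of 0.42. Of 19 tested mitochondrial genes mt-Tm rose and the ribosomal RNA gene mt-Rnr1 fell, at 316 and 287 FPKM with 10 nM RA and 412 and 390 FPKM with 0 nM (-0.41 ± 0.08, limma adjusted p = 0.013), a call lost without 10 nM replicate 2 (-0.34), 0 nM replicate 1 (-0.37) or 0 nM replicate 2 (-0.45).

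The summed level of T-cell genes overlapped between doses, though some of these genes were higher with 10 nM RA. Transcripts of B cells, of class II or dendritic cells and of myeloid cells differed between replicate numbers more than between doses. The summed FPKM of 8 T-cell genes was 1025 and 951 with 10 nM RA and 975 and 920 with 0 nM. In limma 2 of the 8, Lck and Cd3e, were called as rises, against 10.1% called among all genes. The Cd3e call was lost without 10 nM replicate 1 (0.40) or 0 nM replicate 2 (0.39), and the Lck call is given without those fits. At an unadjusted p under 0.05, 4 of the 8 were higher and 0 lower. The sum over 10 B-cell genes was 57.8 and 136 FPKM with 10 nM RA and 29.98 and 105 FPKM with 0 nM, and that over 9 class II or dendritic-cell genes was 26.3 and 167 FPKM and 23.8 and 159 FPKM. All 10 B-cell genes were higher in replicate 2 at both doses, and Ighm, the immunoglobulin μ chain, made up most of the B-cell sum, at 50.5 and 95.5 FPKM with 10 nM RA and 25.5 and 72.3 FPKM with 0 nM. In limma 0 of 9 tested B-cell genes and 0 of 6 tested class II or dendritic genes were called, and 0 had an unadjusted p under 0.05. The dendritic-cell gene Siglech and the myeloid genes Fcgr1 and Itgam were listed at 0 in all 4 libraries, and the 4 erythroid genes summed to at most 1.251 FPKM. Xcl1, Ccl3, Cd38 and Tbx21 were higher in replicate 2 at both doses, as the B-cell, class II and myeloid sums were. The part of other cells in the values of these genes was not tested.

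The same contrast in the other genotypes shares no library with WT, so its values stand beside those of WT for 12 genes. Rara, the gene named in the labels, stood at 16.8 and 17.6 FPKM with 10 nM RA and 19.5 and 19.3 FPKM with 0 nM in libraries that carry the KO label. In TG it stood at 126 and 119 FPKM with 10 nM RA and 72.8 and 63.3 FPKM with 0 nM, where WT had 12.3 and 14.2 FPKM and 16.5 and 18.9 FPKM. The whole-gene level was thus higher in TG and no lower in KO than in WT, and it does not check a deletion of part of the gene. In KO 1 gene differed from WT in its RA effect (0.00839% of 11922, with 640 at an unadjusted p under 0.05), and 892 differed in TG (7.48%). The RA effect on Hic1 was 2.95 ± 0.25 in KO, 5.36 ± 0.25 in TG and 4.28 ± 0.25 in WT, and the differences from WT did not pass (limma adjusted p = 0.50 and 0.11). For Itga4 it was 2.33 ± 0.15 in KO, 4.66 ± 0.15 in TG and 4.04 ± 0.15 in WT, also with no difference past the threshold (adjusted p = 0.096 and 0.12). Gfi1 changed by 1.75 ± 0.19 in KO, 5.34 ± 0.19 in TG and 3.63 ± 0.19 in WT, and the TG difference passed (1.71 ± 0.27, adjusted p = 0.0079). Foxp3 changed by 0.62 ± 0.25 in KO, 4.25 ± 0.25 in TG and 2.18 ± 0.25 in WT (TG minus WT 2.07 ± 0.35, adjusted p = 0.010). Il17f changed by -1.08 ± 0.22 in KO, -6.29 ± 0.22 in TG and -2.06 ± 0.22 in WT (TG minus WT -4.23 ± 0.31, adjusted p = 0.00016). For Il9 the effects were -2.01 ± 0.44 in KO, -6.33 ± 0.44 in TG and -4.29 ± 0.44 in WT, and neither difference passed (adjusted p = 0.55 and 0.096). Of the 12 genes, 8 had a larger effect in TG than in WT by this test, namely Gfi1, Ccr9, Nrip1, Crabp2, Foxp3, Il17f, Vim and Icos, while Hic1, Itga4, Il9 and Cd38 missed the threshold. In all 12 the effect in KO was nearer 0 than in WT, and 0 of these differences passed. The 12 were picked with earlier results of these data known, and most had large effects in WT. So 12 of 12 is not a rate for genes at large.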

How the data were processed

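Per the labels, mouse CD4 T-cell RNA was made into stranded TruSeq libraries and sequenced as single reads of 100 bases. Tools listed per the submitters' processing notes are STAR, HTSeq 0.6.1, Trimmomatic 0.32 and DESeq2, with builds mm10 and GRCm38.p5. The strand setting of the counting is not stated there. The authors deposited 1 table of FPKM values for 52635 genes, of which 26727 are 0 in every library. Classes and coordinates came from GENCODE M21, which had an entry for 52488 of these genes.

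From the table, log2(FPKM + 1) of genes at or above 1 FPKM in 2 or more libraries was fitted with limma 3.58.1 (R 4.3.3), using a mean-variance trend, 6 group means over all 12 libraries and Benjamini-Hochberg adjustment. Library depth, 16289969 to 22567762 reads in WT, came from the step that 1 read makes. Between 95.3% and 95.9% of low values (up to 20 reads) lay within 0.02 of a whole read, and limma's voom on these reads was an alternative. No depth-based intervals are given for single values.

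The fit was tested on simulated reads of 11910 genes for RA in WT. Of genes given a 1.5-fold change it called 7 of 67. At 2-fold it called 35 of 67, at 4-fold 66 of 66, and of unchanged genes 7 of 11710. Every simulated gene had the same overdispersion, 0.02, which is the spread beyond that of counting. No effect of replicate number was simulated, whereas deviations of same-numbered WT libraries correlated at 0.327 between doses. These rates may therefore differ in the real libraries.

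Named genes were the 15 largest called rises and falls by fold change, the 8 largest each way by FPKM, the 2 most changed in each level range, up to 4 called and 2 abundant uncalled members of each list, and 21 fixed genes. Those largest by fold change or by FPKM had doses that did not overlap and a mean of at least 2 FPKM at a dose. Predicted genes and antigen receptor segments were left out. Members and lists were chosen with earlier results of these data known. Each p-value covers the spread between libraries only. Results on some genes and lists are not reported here.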

Additional observations from a re-analysis of the deposited data

Results flagged for a closer look

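The response to RA differed between TG and WT for 8 of 12 genes that were picked with earlier results of these data known (limma, 2 libraries per group). Over all 11922 genes tested, 892 differed between TG and WT (7.48%), so 8 of 12 is not a rate for genes at large. On the log2 scale, TG minus WT was 2.03 ± 0.24 for Ccr9 (adjusted p = 0.0021), 2.33 ± 0.34 for Crabp2 (0.0049), 2.07 ± 0.35 for Foxp3 (0.010), 1.71 ± 0.27 for Gfi1 (0.0079) and 0.89 ± 0.17 for Nrip1 (0.019). For genes that fell with RA it was -4.23 ± 0.31 for Il17f (0.00016), -3.15 ± 0.43 for Vim (0.0040) and -2.04 ± 0.20 for Icos (0.00063). Each of the 8 changed in the same direction in TG as in WT, and by more. Of these, Ccr9 passed the filter on low values only through libraries with RA.

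The pseudogene Rbpsuh-ps1 was the 1 gene whose RA effect differed between KO and WT (KO minus WT 2.52). It stood at 4.96 and 4.30 FPKM in KO libraries with 10 nM RA. Its reads may belong to its parent gene, and it was not called with a pseudocount of 0.1.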

How the results depend on the processing

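Of 173 named genes that were called, 170 stayed called with voom on recovered reads, 170 with a pseudocount of 0.1, 168 when scaled to the upper quartile 137 with no filter on low values and 52 in a fit on the 4 WT libraries alone, and no direction reversed in any alternative run. The WT fit left 142 calls, 106 rises and 36 falls, with fewer libraries to estimate the spread. Leaving out 1 WT library gave 342 to 850 calls, 253 to 600 rises and 89 to 250 falls, with the lone library of a dose assumed to vary like the other groups. For TG minus WT, 892 genes differed (566 rises, 326 falls), and 469 to 716 (343 to 472 rises, 126 to 244 falls) without 1 WT library. The single gene of KO minus WT was not called with a pseudocount of 0.1, which gave 0 calls and 0 rises; the cause was not tested. The labels do not say that replicate numbers pair the samples. Same-numbered libraries had deviations from their group means that correlated at 0.327 between doses in WT, 0.3197 in KO and 0.147 in TG. A replicate block gave 1689 calls for RA in WT (1111 rises, 578 falls) and 1248 for TG minus WT (741 rises, 507 falls), and ended the call of 0 of the 173 genes. With it the T-cell receptor list had 18 rises and 1 fall, MHC class I 13 and 1, coinhibitory receptors 8 and 1, homing receptors 7 and 7, and mitosis 0 and 2. Simulated 1.5-fold changes were called in 7 of 67 genes, so a missed call does not show that a gene did not change.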

Other observations

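4 genes outside the naming rule were chosen after their values were seen, and all 4 were called in each fit that left out 1 WT library. H2-DMa, a chain of the H2-DM molecule that loads peptides onto class II, stood at 57.1 and 48.8 FPKM with 10 nM RA, against 11.9 and 11.7 FPKM with 0 nM (2.07 ± 0.18, limma adjusted p = 0.00066). The class II and dendritic-cell sum was 26.3 and 167 FPKM with 10 nM RA and 23.8 and 159 FPKM with 0 nM. The part of other cells in the H2-DMa values was not tested. Cttn, the actin-branch binder cortactin, stood at 4.18 and 4.95 FPKM with 10 nM RA and 0.581 and 0.633 FPKM with 0 nM (1.79 ± 0.11). Syn1, known as the synaptic vesicle protein synapsin, stood at 21.2 and 19.6 FPKM with 10 nM RA and 4.59 and 6.06 FPKM with 0 nM (1.77 ± 0.16). Mov10, an RNA helicase, stood at 6.32 and 5.42 FPKM with 10 nM RA and 16.8 and 16.5 FPKM with 0 nM (-1.37 ± 0.14).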
